A study of Homo sapiens with 2 samples.

Results

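The mRNAs of 10 plasma carrier proteins (ALB, AHSG, TTR, TF, RBP4, AMBP, HPX, HP, SERPINA1 and ORM1) were examined in Huh7 cells, chosen by gene symbol from the 61541 genes of the deposited table. All 10 were found, each with 1 row. Huh7 is a human hepatocellular carcinoma (HCC) cell line. One library came from Huh7 cells that received a control siRNA (Huh7-NC) and the other from Huh7 cells that received an siRNA against BRF2 (Huh7-si), so the 2 conditions had 1 library each and no difference between them has a replicate check. The series text speaks of infection with the siRNA and the study's methods of transfection. Neither names the time of harvest, nor which of the siRNAs against BRF2 was sequenced, and all cells were of 1 line.

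Hepatocytes make most of the soluble proteins of blood plasma. Carrier proteins bind what does not dissolve or must not circulate free: albumin takes up fatty acids, bilirubin and drugs, transferrin iron, hemopexin heme, haptoglobin free hemoglobin, and retinol-binding protein vitamin A. Their genes are transcribed under liver factors of the HNF4 and C/EBP families. Albumin, transthyretin, transferrin and RBP4 are classed as negative acute-phase proteins, whose synthesis goes down in inflammation, whereas haptoglobin, hemopexin, alpha-1-antitrypsin and orosomucoid are positive ones.

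The deposited counts are estimated reads per gene, with library totals of 22852648 (Huh7-NC) and 22089016 (Huh7-si). CPM scales a gene's reads by these totals, and TPM, from the authors' columns, is also scaled for gene length. BRF2, a transcription factor of RNA polymerase III and the target of the siRNA, went from 56.0 CPM (Huh7-NC) to 16.5 CPM (Huh7-si), 70.6% lower. A difference between libraries is given as the log2 ratio of CPM, Huh7-si over Huh7-NC, with an exact 95% Clopper-Pearson interval. The intervals cover counting error only. They compare 2 libraries and not the conditions. In bulk RNA, fewer cells that make a transcript and less of it per cell cannot be told apart. The liver identity of both libraries was checked on markers: HNF4A had 6766 (Huh7-NC) and 6288 (Huh7-si) reads. Among 12 markers of blood, endothelial, muscle, glial and fibroblast cells, CD3E, HBB and MYH7 were at 0 in both libraries, while CD14 (112 and 94 reads) and PECAM1 (60 and 63 reads) were detected. The list summed to 12.2 CPM (Huh7-NC) and 18.3 CPM (Huh7-si), and COL1A1 (76 and 229 reads) was the 1 marker past a fold of 2. Their part in the results was not tested.

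No carrier gene passed a fold of 2, and every one was a little lower in Huh7-si by CPM. ORM1 and RBP4 stood apart from the rest, at log2 fold changes of -0.71 and -0.60, while the other 8 lay between -0.25 and -0.04. Over all 26379 genes with reads, 9.4% were higher and 1.01% were lower at a fold of at least 2 with an interval that leaves out 0. Values below 0 were common: 35.3% of the 17782 genes with at least 10 reads over both libraries and reads in each had a log2 fold change under 0, and 19.9% had the whole interval under 0. All 10 carrier genes had the whole interval under 0. An interval narrows with reads, so even TF, at -0.04 (-0.06 to -0.02), left out 0. The 19.9% covers genes of far fewer reads and is not a comparison at like depth. Their median log2 fold change was -0.21, where all genes had a median of 0.21.

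By TPM, on which levels of different genes can be compared, albumin led in both libraries. ALB stood at 3957 TPM in Huh7-NC and 4077 TPM in Huh7-si, place 26 and place 19 among all genes. SERPINA1 followed at 2938 and 2972 TPM, and AMBP at 2874 and 2728 TPM. HP was the lowest, at 23.9 and 29.96 TPM, so that albumin exceeded haptoglobin 166-fold in Huh7-NC and 136-fold in Huh7-si. The order differed between the libraries in 1 place: RBP4 (1435 TPM) was above TF (1284 TPM) in Huh7-NC, and TF (1655 TPM) above RBP4 (1065 TPM) in Huh7-si. Neighbours in the order lay apart by more than counting error, except ORM1 (431 TPM, 419 to 445) and TTR (424 TPM, 408 to 440) in Huh7-si. Without replicates it is not known whether any neighbours differ beyond the spread between cultures.

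**Figure D1:**
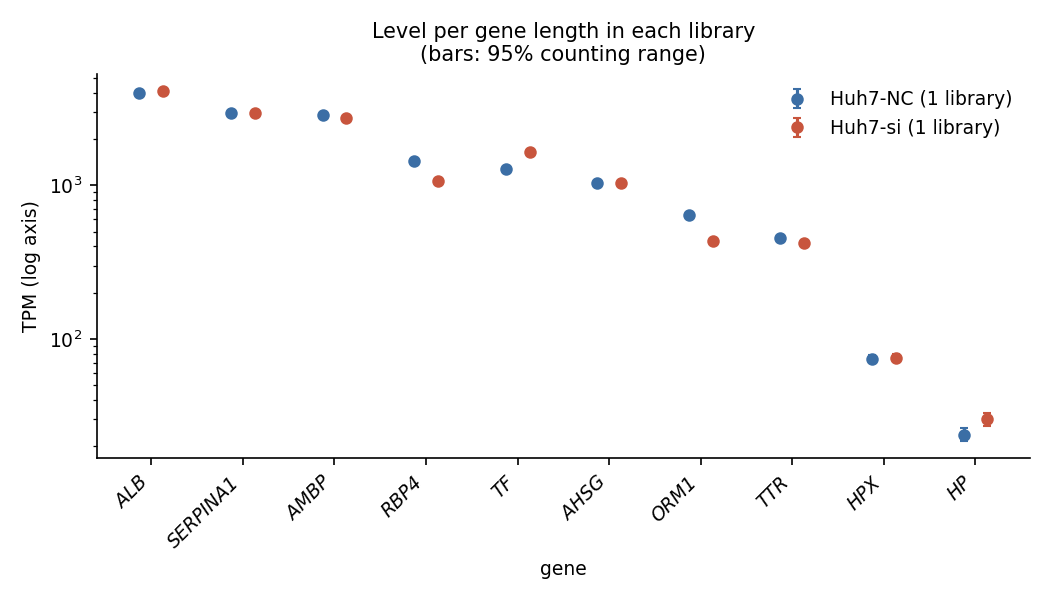
TPM (log axis) of each carrier protein gene in Huh7-NC (blue) and Huh7-si (red), 1 library each, with bars for the 95% range that counting error of the reads allows. Levels run from 3957 TPM for ALB to 23.9 TPM for HP in Huh7-NC, and RBP4 and TF change places in Huh7-si.

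Together the 10 genes took 359767 reads of the Huh7-NC library and 307822 of the Huh7-si library. This was 1.57% (95% Clopper-Pearson interval 1.57 to 1.58) and 1.39% (1.39 to 1.40) of all reads on genes. By TPM their share was 1.47% in Huh7-NC and 1.45% in Huh7-si, so the gap seen in reads was smaller per length. ALB alone held 35.3% and 37.0% of the carrier reads, and ALB, SERPINA1 and AMBP together 71.7% and 72.9%.

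The stretches (windows) before the start sites were read from RefSeq (GRCh38.p14), where 8 of the carriers were matched. These 8 had 12 windows, as a gene can have more than 1 start. TTR and HP were not matched. Among the motifs searched in the 250 bases upstream of each start were the TATA box, which places RNA polymerase II, the CCAAT box and the C/EBP site. The letters TATAAA on the strand of the gene occurred in RBP4 and ORM1, the carriers of lowest log2 fold change. They were in 3 of the 12 carrier windows and in 6.80% of all windows. The sites are shown because these exact letters set these genes apart among the 8 searched. They were picked with the fold changes known, so their match with the lowest values is not a test. Other forms of the TATA box were not searched, so a carrier without the letters may still have one. With the match in capitals, the stretch of ORM1 lies at chr9:114323057-114323086 (plus strand) and that of RBP4 at chr10:93601249-93601278 (minus strand). The matches start 29 and 31 bases before RefSeq starts of transcription, which lie inside the gene spans that GENCODE gives. Another RBP4 window holds the letters 225 bases before its start.
ORM1: cccatagtttatTATAAAggtgactgcacc
RBP4: tccccccggcgcTATAAAgcagcggggcgg
Over 296 genes with TATAAA between 20 and 40 bases before a start, the median log2 fold change was 0.13, and over 11706 genes without it 0.16. Of these genes, 42.2% and 37.5% were under 0, and their median listed lengths were 2259 and 3045 bases. The part of length in this was not tested.

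The letters TTGCNNAA, a form of the C/EBP site, occurred on either strand in ALB, AHSG, TF, RBP4 and HPX. They were in 5 of the 12 carrier windows and in 9.05% of all windows. CCAAT, on either strand, occurred in ALB, TF, RBP4, AMBP and HPX. It was in 5 of the 12 carrier windows and in 32.0% of all windows. In TF the matches of TTGCNNAA and CCAAT overlap. The C/EBP letters of ALB, the carrier of highest TPM, and of RBP4 are shown with the match in capitals, both as the reverse complement of TTGCNNAA. They lie at chr4:73404151-73404180 (plus strand) and chr10:93601328-93601357 (minus strand), 125 and 111 bases before the start.
ALB: tcaaacaatttTTTGGCAAgaatattatga
RBP4: gtcagggcgcgTTATGCAAgtgcccccggc
A match is a run of letters and not a measured binding site.

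Albumin (ALB, ENSG00000163631) lies on chromosome 4 from 73397114 to 73421412 (GRCh38, GENCODE release 29). Huh7-NC held 126940 of its reads and Huh7-si 113860, or 5555 and 5155 CPM. The difference was -0.11 on the log2 scale (-0.12 to -0.096), a change of -7.20%. AFP, the fetal counterpart of albumin and a marker of hepatoma, had 107941 and 123538 reads, a difference of 0.24 (0.23 to 0.26). The reads of AFP per read of ALB were 0.850 in Huh7-NC and 1.08 in Huh7-si, so AFP passed ALB in reads in Huh7-si. By TPM, AFP stayed under ALB in both, at 3391 and 4014 TPM. The 3 genes nearest to ALB in TPM over the 2 libraries (Euclidean distance of log2(TPM + 1)) were RPL37, AFP and RPS2, at distances of 0.07, 0.22 and 0.23. By CPM these genes differed by -0.21, 0.24 and -0.45, so RPL37 and RPS2 were lower in Huh7-si by more than ALB.

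Transthyretin and RBP4 travel as a complex, in which RBP4 holds retinol and transthyretin also carries thyroxine. TTR (ENSG00000118271, chromosome 18 from 31557010 to 31599021) had 3265 reads (Huh7-NC) and 2679 reads (Huh7-si) and differed by -0.24 (-0.31 to -0.16). RBP4 (ENSG00000138207, chromosome 10 from 93591687 to 93601744) had 23206 and 14816 reads, or 1015 and 671 CPM. The difference was larger, at -0.60 (-0.63 to -0.57) or -33.9%, and 5.38% of the 17782 genes had a lower value. The intervals of the 2 partners did not overlap. Per length, RBP4 exceeded TTR 3.17-fold in Huh7-NC and 2.51-fold in Huh7-si.

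Transferrin, hemopexin and haptoglobin handle iron, heme and hemoglobin. TF (ENSG00000091513, chromosome 3 from 133745956 to 133796640) had 39403 (Huh7-NC) and 37019 (Huh7-si) reads and the smallest difference of the 10 genes, at -0.04 (-0.06 to -0.02). By TPM it was higher in Huh7-si, at 0.37 on the log2 scale. SRPRB shares the strand of TF and overlaps it in the annotation, with 2791 and 1961 reads. HPX (ENSG00000110169, chromosome 11 from 6431049 to 6442617) had 1434 and 1265 reads and differed by -0.13 (-0.24 to -0.02). HP (ENSG00000257017, chromosome 16 from 72054592 to 72061055) had 459 and 379 reads and the widest interval, at -0.23 (-0.43 to -0.03). TXNL4B lies opposite HP with 917 and 711 reads, and the sources used here do not state whether the counting used strand.

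SERPINA1, AMBP and AHSG were close to each other. SERPINA1 (ENSG00000197249, chromosome 14 from 94376747 to 94390693) encodes alpha-1-antitrypsin, the inhibitor of neutrophil elastase. Its reads numbered 74050 (Huh7-NC) and 64431 (Huh7-si), a difference of -0.15 (-0.17 to -0.14). AMBP (ENSG00000106927, chromosome 9 from 114060127 to 114078472) encodes a precursor that is cut into alpha-1-microglobulin, a heme-binding lipocalin, and the protease inhibitor bikunin. It had 56811 and 46183 reads and differed by -0.25 (-0.27 to -0.23). AHSG (ENSG00000145192, chromosome 3 from 186612923 to 186621318) encodes fetuin-A, which keeps calcium phosphate in solution. AHSG had 27046 and 22975 reads and differed by -0.19 (-0.21 to -0.16).

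ORM1 (ENSG00000229314, chromosome 9 from 114323056 to 114326475), which encodes the drug-binding alpha-1-acid glycoprotein, was the lowest relative to Huh7-NC. Its reads numbered 7152.5 (Huh7-NC) and 4214.9 (Huh7-si), or 313 and 191 CPM. The difference was -0.71 (-0.77 to -0.66) or -39.0%, and 3.51% of the 17782 genes had a lower value. By CPM, ORM1 and RBP4 were also the 2 carrier genes past a fold of 1.5 in the lower direction, where 2.83% of all genes with reads were. Both were past it by TMM scaling (-0.94 and -0.82). Neither was by TPM (-0.57 and -0.43) or less genes of like listed length (-0.54 and -0.51). Less genes of like implied length, ORM1 was (-0.64) and RBP4 was not (-0.50). Of the distinct words of 50 bases in the annotated ORM1 transcripts, 42.0% also occur in transcripts of its copy ORM2, so the split of reads between them is uncertain. ORM2 had 2009.5 and 1127.1 reads. The pair summed to 9162 and 5342 reads, with a difference of -0.73 (-0.78 to -0.68), and ORM1 held 78.1% and 78.9% of them. The summed pair was thus as low as ORM1 alone. HP shares 10.8% of its words with HPR, and that pair, with 552 and 448 reads, stood at -0.25 (-0.44 to -0.07). Outside ORM1, HP and TF (2.92%), no carrier gene shared a word of 50 bases with another gene.

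The direction of some carriers depended on the scale. By TPM, ORM1 (-0.57), RBP4 (-0.43), TTR (-0.09), AMBP (-0.08) and AHSG (-0.0087) were lower in Huh7-si, and HPX (0.02), SERPINA1 (0.02), ALB (0.04), HP (0.33) and TF (0.37) were higher. The counting ranges of the 2 libraries overlapped by TPM for 4 of these genes, AHSG, HPX, SERPINA1 and TTR, which therefore have no clear direction on this scale. The median of all genes was also higher on this scale, at 0.39, and 25.0% of the 17782 genes had a TPM ratio under 1. Relative to all genes, the carriers' median was 0.41 lower by CPM (-0.41) and 0.38 lower by TPM (-0.38), and each of the 10 genes lay under the median of all genes on both scales. TMM scaling shifts every log2 fold change by -0.22, which put all genes at a median of -0.02 and the carriers at -0.43.

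**Figure D2:**
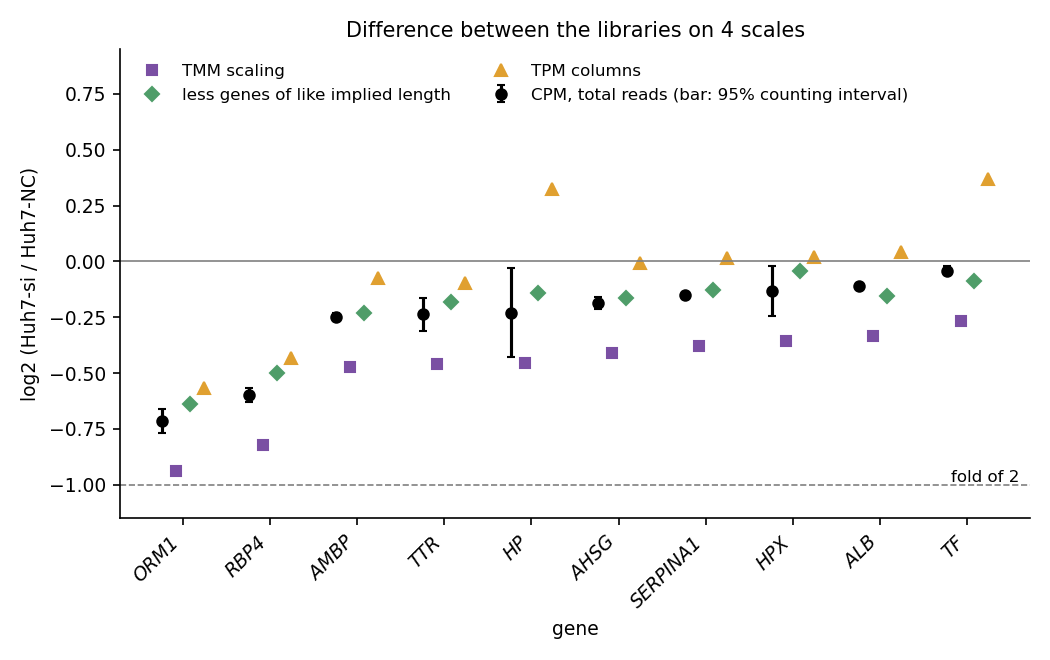
Log2 ratio of Huh7-si to Huh7-NC for each carrier protein gene by CPM (black, with the 95% counting interval), TMM scaling (purple), CPM less the median of genes of like implied length (green) and TPM (orange). ORM1 and RBP4 lie lowest on each of the 4 scales and no value reaches a fold of 2; HP and TF reach 0.33 and 0.37 by TPM.

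HP and TF also differed in the transcript length that reads and TPM together imply. This length, scaled so that the median gene keeps its listed length, was 1234 bases (Huh7-NC) and 972 bases (Huh7-si) for HP, a log2 ratio of -0.34. For TF it was 1972 and 1719 bases, a log2 ratio of -0.20, far under the listed length of 20166 bases. In the other 8 genes the log2 ratio of implied lengths lay between 0.03 and 0.07, and the median of all genes with at least 100 reads in each library was 0.03. The TPM of HP and TF thus also carries a shorter assigned length in Huh7-si. As this length is computed from reads and TPM, it restates the gap between their CPM and TPM values and is no separate measurement. The cause of the shorter length was not tested.

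The difference between the libraries varied with transcript length, and the carrier genes are short. Their listed lengths ran from 764 bases (ORM1) to 20166 (TF), with a median of 1517.5. Among 20 bins of implied length, the genes of the lowest bin had a median log2 fold change of -0.06 and those of the highest 0.65. The bins that hold the carriers had medians between -0.10 and 0.05. Less the median of their bin, all 10 genes were below 0, with a median of -0.16. ORM1 then stood at -0.64 and RBP4 at -0.50, while TF was at -0.09 and HPX at -0.04. With listed length in place of implied length, the median was -0.17 and TF, which falls in the bin of the longest genes, stood at -0.71. Values below 0 by listed length were not particular to the carriers. Of the related lists given below, all but acute-phase signalling had a median under 0 on that scale.

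**Figure D3:**
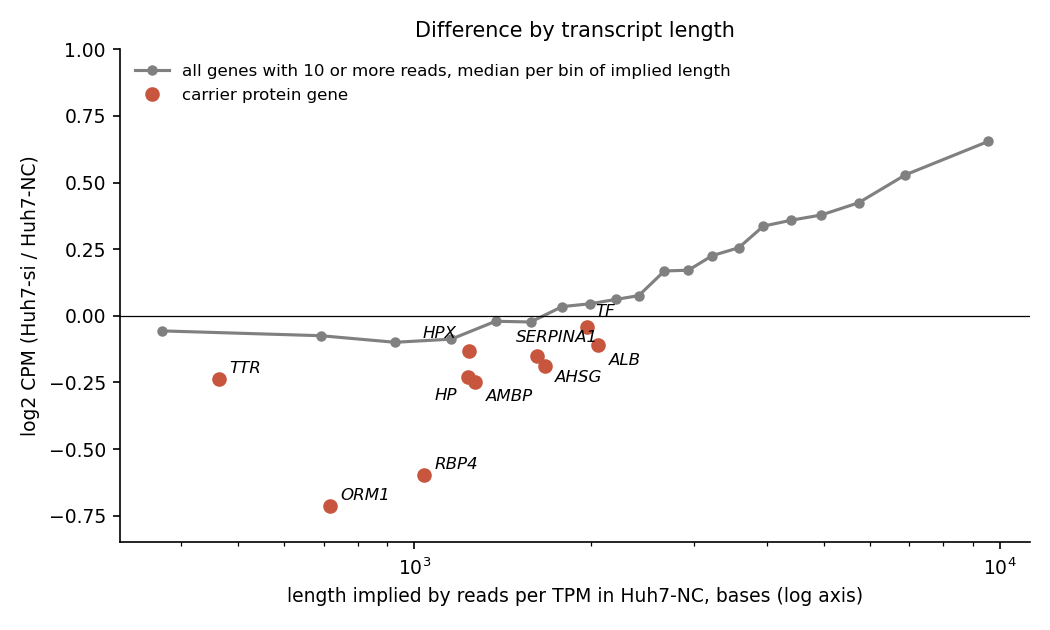
Log2 ratio of CPM, Huh7-si over Huh7-NC, against the length implied by reads per TPM in Huh7-NC (log axis). Grey points are medians of 20 bins of all genes with at least 10 reads and rise from -0.06 to 0.65; red points are the carrier protein genes, of which ORM1 (-0.71) and RBP4 (-0.60) lie farthest under the line.

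Among 20 transcription factors of hepatocytes, none passed a fold of 2, and the median log2 fold change was -0.05 by CPM and 0.19 by TPM. Less the median of genes of like listed length, their median was -0.23 and 15 of the 20 lay below 0. CEBPA, the founding member of the C/EBP family, had 11601 and 7249 reads and stood at -0.63 (-0.67 to -0.59). Its part in the differences of the carriers was not tested. HNF4A stood at -0.06 (-0.11 to -0.0069) by CPM and at 0.14 by TPM.

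Of 36 other plasma proteins outside coagulation, complement and the apolipoproteins, 35 had reads, 2 were past a fold of 2 in the higher direction and none in the lower. FN1, which encodes fibronectin, had 45086 (Huh7-NC) and 116436 (Huh7-si) reads and stood at 1.42 (1.40 to 1.43). Its listed length is 8390 bases, and less genes of like length it stood at 0.88, under a fold of 2. By TMM scaling FN1 stood at 1.19 and by TPM at 1.21, past a fold of 2. ITIH4, named after its value was seen, had 15.5 and 41.0 reads. The median of the 31 genes with at least 10 reads was 0.08 by CPM, against -0.21 for the carriers and 0.21 for all genes. By TMM scaling it was -0.15, against -0.43 for the carriers and -0.02 for all genes. Less genes of like listed length, the median of the 31 genes was -0.04 and 16 lay below 0. Values for genes close in function to the carriers, named after they were seen, differed in direction. Hepcidin (HAMP), the iron hormone of the liver, stood at -0.80 (-0.94 to -0.66). Ceruloplasmin (CP), the copper-binding ferroxidase, stood at 0.97 (0.86 to 1.08), and the vitamin D carrier GC at -0.23 (-0.28 to -0.19).

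The receptors and cargo handlers of the carriers were examined as a list of 22 genes. The 18 with at least 10 reads had a median of -0.03 by CPM and 0.09 by TPM. Less genes of like listed length, their median was -0.20 and 12 of the 18 lay below 0. LRP1, which takes up heme bound to hemopexin, had 7377 and 15607 reads and stood at 1.13 (1.09 to 1.17). LRP2, a receptor for RBP4 and other carriers, had 94 and 212 reads and stood at 1.22 (0.87 to 1.59). These 2 were past a fold of 2 and none was in the lower direction. Both encode long transcripts, of 14923 and 15657 listed bases, and after the median of their listed-length bin was taken off they stood at 0.46 and 0.55, under a fold of 2. By TMM scaling they stood at 0.91 and 0.998, and by TPM at 1.17 and 1.18, past a fold of 2. The ferritin chains FTL and FTH1, which store iron, were the most abundant of the list, at -0.57 (-0.58 to -0.56) and -0.40 (-0.41 to -0.38). The following receptors were named after their values were seen. The transferrin receptor TFRC stood at 0.58 (0.54 to 0.63), TFR2 at -0.15 (-0.30 to 0.0011) and FCGRT, the receptor that recycles albumin, at -0.22 (-0.33 to -0.11). CD163, the haptoglobin-hemoglobin receptor of macrophages, was at 0 reads throughout, where a count of 0 allows 3 reads per library.

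All 16 genes of acute-phase signalling had log2 fold changes above 0, with a median of 0.42, where all genes had 0.21. By TMM scaling the median was 0.19 and 5 of the 16 lay below 0. Less the median of genes of like listed length, the median was 0.09 and 5 lay below 0. IL1RAP, a subunit of the interleukin-1 receptor, had 519 and 1087 reads and stood at 1.12 (0.96 to 1.27). SOCS3, an inhibitor of cytokine signalling named after its value was seen, had 35 and 72 reads. These 2 were past a fold of 2 in the higher direction by CPM. Neither was by TMM scaling (0.89 for IL1RAP and 0.87 for SOCS3) or less genes of like listed length (0.70 and 0.97). Both were past it by TPM (1.14 and 1.26). All 16 genes lay above 0 by TPM, with a median of 0.63, where all genes had 0.39. TNFRSF1A and TYK2, the most abundant of the list, stood at 0.03 (-0.03 to 0.09) and 0.42 (0.35 to 0.49). Among 31 genes of the secretory pathway none was past a fold of 2, and the median was -0.12 by CPM and 0.15 by TPM. Less genes of like listed length, the secretory median was -0.16 and 29 of the 31 lay below 0. CALR and P4HB, chaperones of the endoplasmic reticulum, stood at -0.28 (-0.30 to -0.26) and -0.06 (-0.09 to -0.04).

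**Figure D4:**
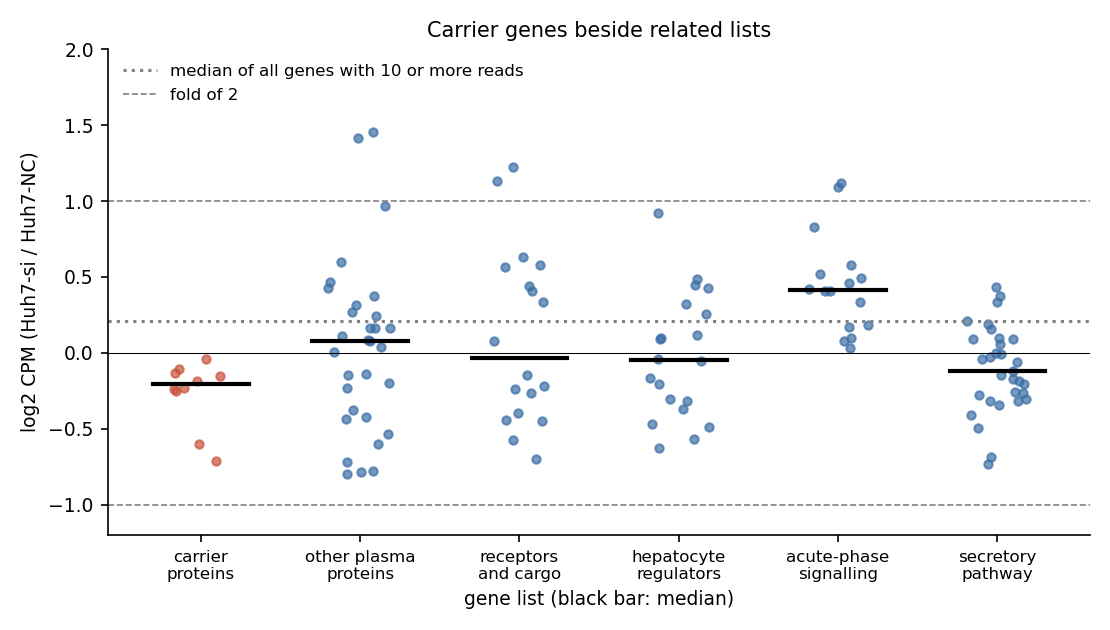
Log2 ratio of CPM, Huh7-si over Huh7-NC, for each gene with at least 10 reads in the carrier proteins (red) and 5 related lists (blue), with black bars for medians. The carriers have a median of -0.21 and lie under 0 throughout, acute-phase signalling has 0.42, and the dotted line marks the median of all genes, 0.21.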

How the data were processed

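RNA-seq libraries of Huh7 cells, Huh7-NC and Huh7-si, were grouped by their titles, 1 library each. The authors deposited 1 table with estimated counts per gene, not scaled and partly fractional, and TPM values, scaled by the authors for length and library. Its columns of fold change and p were not used, and the number of other per-sample columns was 0. The submitters' processing notes name Bowtie2 2.0.6, TopHat2 2.0.12 and GRCh37; the counting tool and strand are not given in the sources used here. The table has no coordinates. Positions are from GENCODE release 29 (GRCh38), which holds 94.8% of the identifiers.

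The carrier genes and the lists were chosen with earlier results of these data known. CPM was computed from each library's total. Counts were rounded for 95% Clopper-Pearson intervals, a count of 0 allows 3 reads (0.131 CPM in Huh7-NC, 0.136 CPM in Huh7-si), and genes past a fold of 2 whose interval leaves out 0 were counted. No p-value was computed. Named genes were all carriers, BRF2, and in each other list up to 6 genes past the fold with at least 100 reads in a library and the 2 of highest TPM in Huh7-NC. Alternatives were other scalings, the TPM columns, medians of genes of like length, a pseudocount, filters on low counts and a fold of 1.5. Calls were tested on simulated counts. Python 3.11.15, NumPy 2.4.6, pandas 2.3.3, SciPy 1.17.1, matplotlib 3.10.9, R 4.3.3, edgeR 4.0.16 (TMM, upper quartile) and DESeq2 1.42.0 (median of ratios) were used. Some results are not reported here.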

Additional observations from a re-analysis of the deposited data

How the results depend on the processing

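No carrier gene was past a fold of 2 under any alternative that kept that fold, including 1 chosen after seeing the data (genes of like implied length). At a fold of 1.5, 2 were lower by CPM. Of 90 single-gene values under 9 alternatives, 85 were below 0, and the 5 above 0 came from the TPM columns. Other scalings and changed totals add the same negative shift to every gene, and a pseudocount cannot change a sign. Values under these alternatives were thus below 0 by construction. Only the TPM columns and the medians of genes of like length could have changed a sign. The carriers' median log2 fold change, -0.21, was -0.43 under TMM, -0.41 under DESeq2 size factors, -0.39 under upper-quartile scaling, -0.24 without the 100 most abundant genes, 0.0040 by TPM, -0.17 less genes of like length and -0.16 less genes of like implied length. The carriers' share by TPM was 1.47% in Huh7-NC and 1.45% in Huh7-si. Over all genes, 2480 were higher and 266 lower (90.3% higher). The lower genes numbered 461 (TMM), 433 (DESeq2 size factors) and 400 (upper quartile), with 78.9%, 80.4% and 82.0% of calls higher. A pseudocount of 1 CPM gave 911 and 43, at least 10 reads in each library 1414 and 106, at least 1 CPM in either library 127 lower genes, and a fold of 1.5 gave 4357 and 747. Filters test fewer genes by construction; otherwise the cause was not tested. No paired analysis was possible because each condition has 1 library, and no replicate could be left out. Depth limits HP most, whose interval spans -0.43 to -0.03.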
